A study of Mus musculus with 9 samples.

Results

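RAW264.7 cells are a line of mouse macrophage type that came from a tumour induced by Abelson leukaemia virus, and they divide in culture. The expression of 55 genes that license, fire and copy replication origins was followed in 9 RNA-seq libraries of these cells, 3 from each of 3 groups. The groups are cells given lipopolysaccharide together with sodium butyrate (LPS+NaBu), cells given lipopolysaccharide, the endotoxin of Gram-negative bacteria (LPS), and untreated cells (Control). NaBu, the salt of a short-chain fatty acid that inhibits histone deacetylases, was given ahead of LPS, and the sources used here do not give its dose and timing in the sequenced cells. No cells given NaBu without LPS were analysed here. All groups are the same line, and the labels give no genetic change between them. The genes were chosen by symbol from the known machinery of DNA replication, by a rule that uses no measured value. The list was drawn up with earlier results of these data known, and all 55 are among the 43629 genes of the files.

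DNA replication begins at origins, which the origin recognition complex marks and on which Cdc6 and Cdt1 load the ring of MCM proteins in G1, a step called licensing. The kinases Cdc7-Dbf4 and Cdk2 with cyclin E then turn the ring into a moving helicase together with Cdc45 and the GINS complex. Polymerases, the sliding clamp Pcna and its loader, the single-strand binding protein RPA and the enzymes that join Okazaki fragments follow the helicase, while a fork protection complex holds the helicase and polymerases together. Many of these genes are transcribed at the passage from G1 to S phase by E2F transcription factors, and differentiating or stimulated macrophages often leave the cycle.

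Values are normalised counts, that is gene counts divided by a size factor of the library. They hold no gene length, so levels are compared between genes only per kilobase (kb) of exon. The libraries had 37.6 M to 64.4 M recovered reads. The share of counts from mitochondrially encoded genes was 2.05% to 2.16% in the LPS+NaBu libraries, 1.36% to 1.46% in the LPS libraries and 2.06% to 2.27% in the Control libraries. All 10 macrophage markers were detected, with a summed level of 212600 to 231800 in the LPS+NaBu libraries, 570970 to 618790 in the LPS libraries and 458610 to 476960 in the Control libraries. Lyz2 was the largest part of these sums, with means of 148100, 268180 and 255390. In LPS+NaBu against LPS all but Fcgr3 (log2 change 0.39, higher) were called lower, from Adgre1 (-0.43) to Cd14 (-4.19). In LPS+NaBu against Control all but Adgre1 (0.67, higher) were called lower. The 6 fibroblast markers summed to 268 to 296, 13.03 to 18.8 and 6.36 to 12.1 in the same groups. The 4 that were tested, Col1a1, Pdgfra, Pdgfrb and Thy1, were all called higher in LPS+NaBu against LPS and against Control. Their log2 changes against LPS ran from 3.012 (Pdgfra) to 5.059 (Col1a1). Dcn, which was not tested, was at 0 in every LPS+NaBu library. Of the lymphocyte markers, Ms4a1 was at 0 throughout, and Cd3e and Cd3g were at 0 in the LPS and Control libraries. The kinase Lck made up nearly all of the T cell sum. It was called higher in LPS against Control (log2 change 1.60) and lower in LPS+NaBu against LPS (-2.70). The 5 B cell markers summed to 46.3 to 56.4 in the LPS+NaBu libraries, 74.9 to 104 in the LPS libraries and 5.57 to 20.002 in the Control libraries. Of these, Pax5 was called higher in LPS against Control, where it was at 0 in every Control library. In LPS+NaBu against LPS, Pax5 was called lower (log2 change -4.29), while Cd79a (2.07) and Cd79b (3.40) were called higher. Of the endothelial markers, Pecam1 was called higher there (1.10) and Cdh5 was not called. S100a8, the only neutrophil marker tested, was called lower there (-1.96). Mpo, not tested, was at 0 in the LPS and Control libraries and at 6.35 to 12.3 in the LPS+NaBu libraries. No hepatocyte marker was tested, and all but Apoa1 were at 0 throughout. The part of these shifts in the results was not tested.

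Sequence at the start of these genes was read first, because E2F is the factor best known for them. RefSeq promoter windows on GRCm38.p6, 250 bases before to 50 after a start, were found for 45 of the 55 genes. None was found for Ccne2, Gins1, Gins2, Gins4, Gmnn, Mcm4, Pole, Prim2, Rfc2 and Tipin, so these genes were not searched. Of these, Gins4 and Rfc2 were called higher in LPS+NaBu against LPS, Gmnn and Prim2 were not called, and the others were called lower. An E2F motif, searched on both strands as TTTCCCGC, TTTCGCGC, TTTGCCGC or TTTGGCGC with overlapping matches counted, was in the windows of 18 of the 45 genes (40%), against 704 of 27025 gene symbols (2.605%). At least 2 matches were held by Mcm3, Mcm5, Mcm6, Mcm7 and Rfc3, against 0.1073% of all symbols. The symbols are all those with a window, whether or not the gene was among the 14808 tested, as all 45 were. CCAAT was in 25 windows (55.56%, all symbols 41.06%) and TTTGAA, the letters of the cell cycle element CHR, in 7 (15.56%, all symbols 20.23%). The stretches of 6 genes follow, with the E2F letters in capitals and 20 bases on either side: Orc1 and Cdc6 for the loading of the helicase, Mcm5 and Mcm6 for the helicase itself, Topbp1 for its activation, and Gins3, the only gene with such a match that was called higher in LPS+NaBu cells than in LPS cells.

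The sequences are given 5′ to 3′ on the strand of each gene.
Orc1: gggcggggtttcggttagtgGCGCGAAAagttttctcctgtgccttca
Cdc6: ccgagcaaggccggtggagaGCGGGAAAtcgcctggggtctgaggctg
Mcm5: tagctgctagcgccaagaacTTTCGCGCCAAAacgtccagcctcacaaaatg
Mcm6: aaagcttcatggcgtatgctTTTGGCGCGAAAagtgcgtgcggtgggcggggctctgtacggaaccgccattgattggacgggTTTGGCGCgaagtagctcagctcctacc
Topbp1: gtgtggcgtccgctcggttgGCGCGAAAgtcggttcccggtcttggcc
Gins3: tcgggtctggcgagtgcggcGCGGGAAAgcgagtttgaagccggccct

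On GRCm38.p6 these lie at chr4:108579407-108579454 (Orc1), chr11:98907993-98908040 (Cdc6), chr8:75109336-75109387 (Mcm5), chr1:128359725-128359835 (Mcm6), chr9:103305178-103305225 (Topbp1) and chr8:95633498-95633545 (Gins3); Mcm6 is on the minus strand and the others on the plus strand. In Mcm5, and at the first of the sites in Mcm6, 2 matches on opposite strands overlap and are printed as 1 run of capitals. A match of letters is a description and not a site shown to be bound. The 18 genes with a match had a median log2 change of -1.61 in LPS+NaBu against LPS (17 called lower, 1 higher), and the 27 without a match had a median of -0.99 (23 lower, 2 higher), where of all 14808 genes tested 37.8% were called lower and 40.2% higher by limma at an adjusted p under 0.05. In LPS against Control the medians were -0.40 and -0.33, so the medians with and without an E2F match lay closer together there. With and without CCAAT, the medians were -1.397 and -0.999 in LPS+NaBu against LPS, and -0.3258 and -0.4184 in LPS against Control. With and without TTTGAA, they were -1.181 and -1.081 in LPS+NaBu against LPS, and -0.3064 and -0.3685 in LPS against Control. None of these splits was put to a test, and the part of E2F in the changes was not tested. Mcm10, which changed most in LPS+NaBu against LPS, and Timeless held no E2F match in their windows.

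Most of the machinery was at a lower level in LPS+NaBu cells. Against LPS cells, 46 of the 55 genes were called lower and 5 higher, and 4 were not called. Against 37.8% and 40.2% of all genes tested, the replication genes were lower far more often than the background and higher far less often. A fall of at least 2-fold was called for 30 of the 55, against 16.0% of all genes. The median log2 change was -1.18, against 0.02 over all genes tested. The LPS+NaBu and LPS libraries did not overlap for 50 of the 55 genes. The same share over all genes tested was not computed, so this count is not read as particular to these genes.

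LPS without NaBu gave a smaller median change. Against Control, 40 of the 55 genes were called lower in LPS cells (30.8% of all genes tested) and 6 higher (25.2% of all genes tested), and 9 were not called. The median log2 change was -0.38, against -0.05 over all genes. The genes called higher were Orc1, Orc4, Cdt1, Mcm10, Rfc3 and Timeless. With every library scaled to the same sum, which shifts the median of all genes by -0.23, 49 were called lower and 3 higher (Orc1, Mcm10 and Timeless), and over all genes 7074 were lower and 2273 higher in place of 4568 and 3739. The same scaling shifts the median by 0.28 in LPS+NaBu against LPS, where it left 40 genes called lower and 10 higher, with 4132 lower and 7417 higher over all genes in place of 5602 and 5956. Both comparisons use the LPS libraries, so their values are given side by side and were not set against each other by a test.

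Set against Control cells, LPS+NaBu cells had 53 of the 55 genes called lower (35.1% of all genes tested) and 2 higher, Orc4 and Gins4 (40.9% of all genes tested). The median log2 change was -1.45, against 0.09 over all genes. As a share of each library's normalised counts, the 55 genes together took 0.254% to 0.256% in the LPS+NaBu libraries, 0.444% to 0.464% in the LPS libraries and 0.626% to 0.636% in the Control libraries. No library of any group overlapped another group in that share. In bulk RNA, fewer cells in S phase and less of these transcripts in each cell cannot be told apart.

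**Figure D1:**
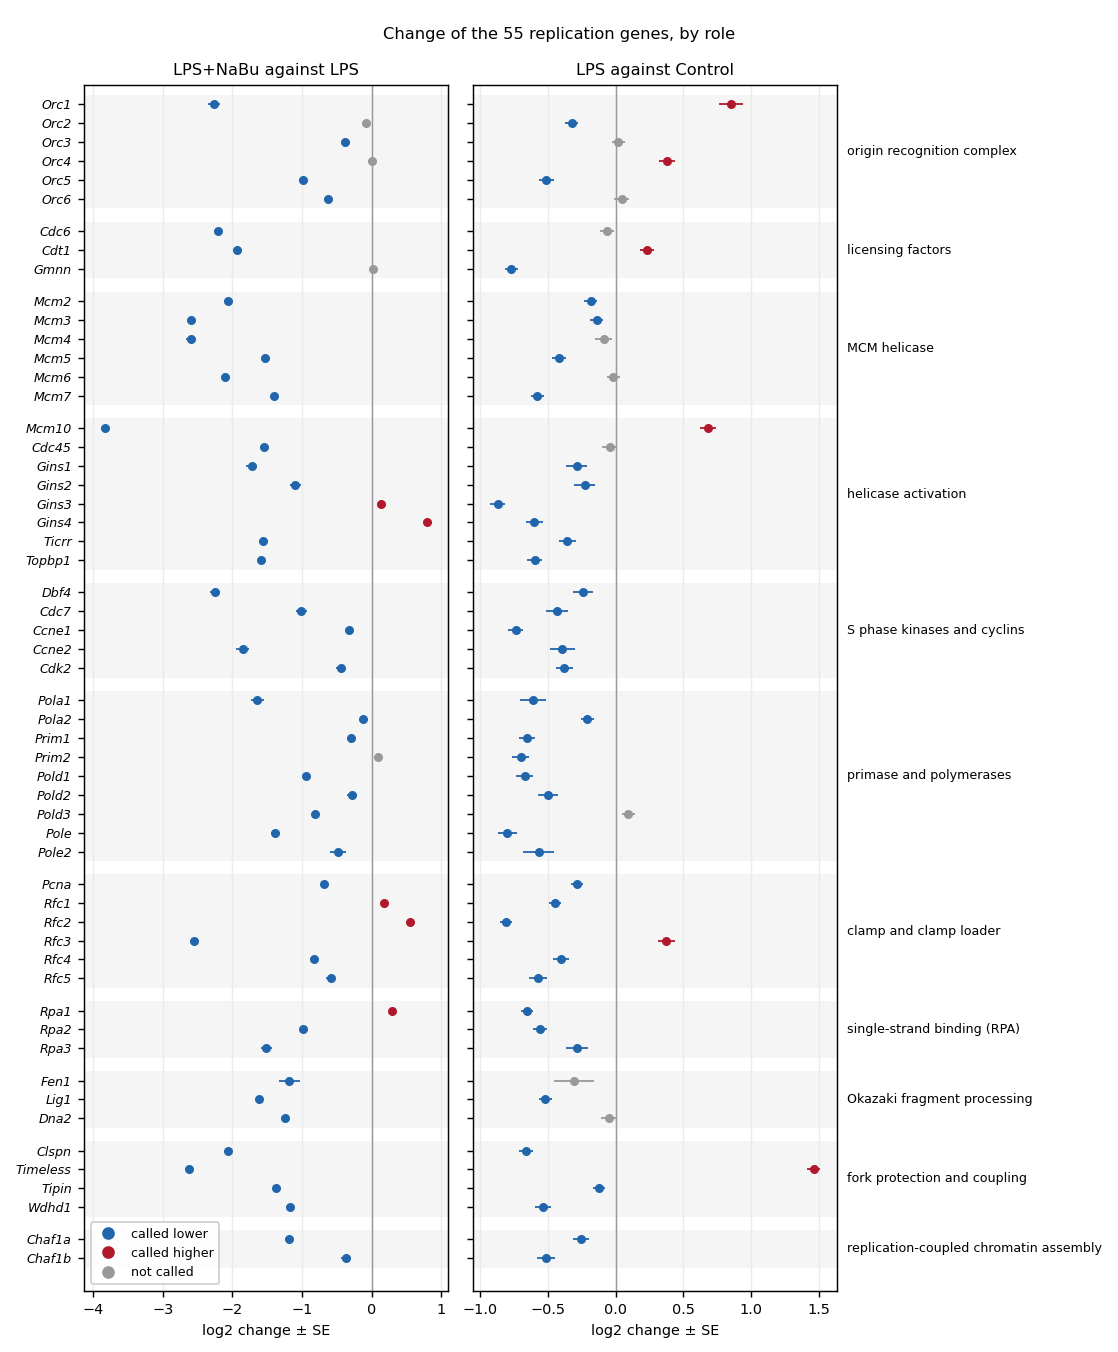
Change of each of the 55 genes on the log2(normalised count + 1) scale with its standard error (horizontal axes, which differ in range), in LPS+NaBu against LPS (left) and LPS against Control (right), ordered by role. Blue points were called lower, red points higher and grey points not called by limma; 46 genes were lower on the left and 40 on the right, and with libraries scaled to the same sum Pola2, Orc2 and Orc4 turn to higher on the left and Orc3, Orc6 and Pold3 to lower on the right.

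**Figure D2:**
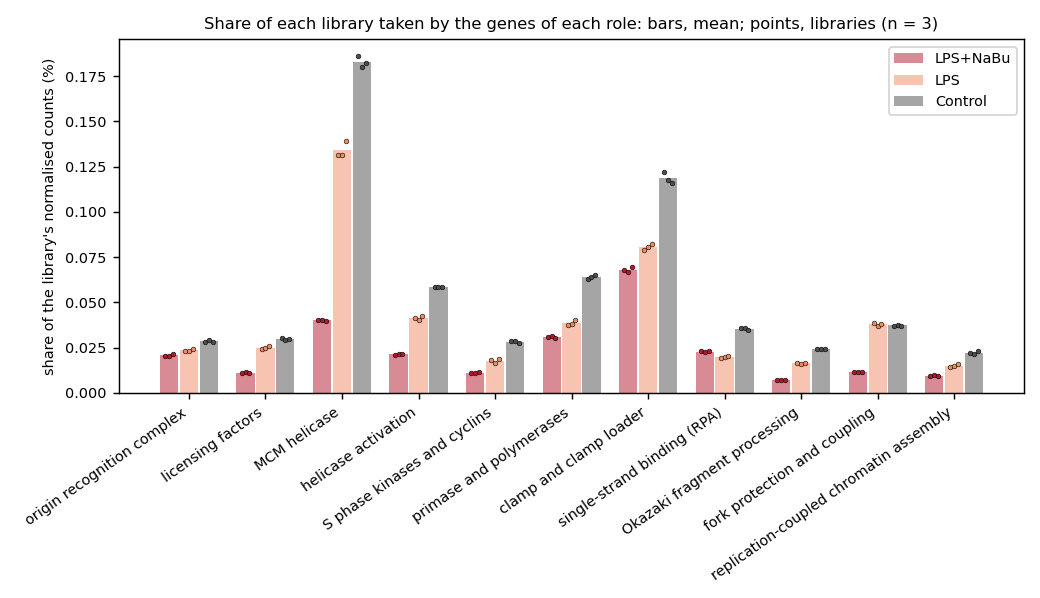
Share of the normalised counts of each library (vertical axis, %) taken by the genes of each role, with bars for the mean and points for the 3 libraries of a group. The MCM helicase took 0.0396% to 0.0405% in the LPS+NaBu libraries, 0.132% to 0.139% in the LPS libraries and 0.180% to 0.186% in the Control libraries, the widest gap of the roles shown.

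The origin recognition complex, which binds origins and recruits the loading factors, has Orc1 as its largest subunit and the one that mammalian cells renew in each cycle (ENSMUSG00000028587, chromosome 4, 108436540 to 108473245 on GRCm39). Orc1 stood at 288, 253 and 313 in the LPS+NaBu libraries, 1328, 1305 and 1486 in the LPS libraries and 768, 745 and 764 in the Control libraries. The LPS libraries were the highest and the LPS+NaBu libraries the lowest, with no overlap between groups. Orc1 was 4.82-fold lower in LPS+NaBu cells than in LPS cells (log2 change -2.27 ± 0.09, adjusted p = 5.51e-11) and 1.8-fold higher in LPS cells than in Control cells (0.85 ± 0.09, adjusted p = 2.67e-06). In both of these comparisons the other subunits moved less. Orc5 was lower in both, at -0.99 ± 0.06 in LPS+NaBu against LPS and -0.51 ± 0.06 in LPS against Control, and in LPS+NaBu against Control its fall (-1.50 ± 0.06) stood beside that of Orc1 (-1.42 ± 0.09). Orc6 and Orc3 were lower in LPS+NaBu against LPS (-0.63 ± 0.06 and -0.39 ± 0.05) and not called in LPS against Control (0.04 ± 0.06 and 0.02 ± 0.05), where the value of each turns to called lower with libraries scaled to the same sum.

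Orc4, an ATP-binding subunit, and Orc2, part of the core of the complex, were not called in LPS+NaBu against LPS. Orc4 stood at 1816, 1757 and 1939 in the LPS+NaBu libraries, 1860, 1802 and 1850 in the LPS libraries and 1337, 1501 and 1400 in the Control libraries. The LPS+NaBu and LPS libraries overlapped, and both lay above every Control library. Orc4 was higher in LPS against Control (0.38 ± 0.06, adjusted p = 0.000112), a call that is lost with libraries scaled to the same sum. Of its exon bases, 27.0% lie opposite exons of other genes, as do 35.75% of those of Orc3 and 20.74% of those of Orc2. Orc2 changed by -0.08 ± 0.05 in LPS+NaBu against LPS and by -0.33 ± 0.05, adjusted p = 8.86e-05 in LPS against Control. Scaling to the same sum turns both genes to called higher in LPS+NaBu against LPS. With edgeR, Orc2 is instead called lower there (-0.18, adjusted p = 0.0069, against 0.00405 to 0.872 over all alternatives).

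The licensing factors split. Cdc6, the ATPase that loads the helicase with the origin recognition complex, stood at 549, 581 and 551 in the LPS+NaBu libraries, 2527, 2508 and 2716 in the LPS libraries and 2726, 2687 and 2693 in the Control libraries. The LPS+NaBu libraries lay far below the others, while the LPS libraries reached into the range of the Control libraries. Cdc6 was 4.61-fold lower in LPS+NaBu against LPS (-2.20 ± 0.05, adjusted p = 7.77e-13) and not called in LPS against Control (-0.07 ± 0.05, adjusted p = 0.327). Cdt1, which brings the MCM ring to the origin, averaged 2228 ± 132 in LPS+NaBu cells, 8549 ± 396 in LPS cells and 7284 ± 204 in Control cells (SD, n = 3). It was 3.84-fold lower in LPS+NaBu against LPS (-1.94 ± 0.05, adjusted p = 2.06e-12) and higher in LPS against Control (0.23 ± 0.05, adjusted p = 0.00238). The call against Control is lost with quantile normalisation (adjusted p = 0.527) and with scaling to the same sum (adjusted p = 0.962), against 1.33e-04 to 0.962 over the 20 alternatives.

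Gmnn encodes geminin, the protein that binds Cdt1 and stops a second round of licensing. It stood at 2112, 2140 and 2125 in the LPS+NaBu libraries, 2039, 2175 and 2107 in the LPS libraries and 3691, 3488 and 3613 in the Control libraries. The LPS+NaBu libraries lay inside the range of the LPS libraries, and both groups were below every Control library. The change was 0.01 ± 0.05, adjusted p = 0.803 in LPS+NaBu against LPS and -0.77 ± 0.05, adjusted p = 1.2e-08 in LPS against Control. Scaling to the same sum raises the first of these to a call, at 0.29.

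The 6 MCM subunits, which form the ring that unwinds DNA, were all called lower in LPS+NaBu against LPS. Of each library's normalised counts they took 0.0396% to 0.0405% in the LPS+NaBu libraries, 0.132% to 0.139% in the LPS libraries and 0.18% to 0.186% in the Control libraries. Mcm2 (ENSMUSG00000002870, chromosome 6, 88860452 to 88875762) stood at 2143, 2115 and 2112 in the LPS+NaBu libraries, 8556, 8699 and 9499 in the LPS libraries and 10456, 9667 and 10287 in the Control libraries. Mcm3 (ENSMUSG00000041859, chromosome 1, 20870791 to 20890536) stood at 2687, 2494 and 2421 in the LPS+NaBu libraries, 15057, 15127 and 15784 in the LPS libraries and 17499, 16309 and 16852 in the Control libraries. For both subunits the LPS+NaBu libraries lay well under the others, and no LPS library reached the lowest Control library. Mcm2 was 4.19-fold lower and Mcm3 6.05-fold lower in LPS+NaBu against LPS (-2.07 ± 0.05, adjusted p = 6.22e-13, and -2.60 ± 0.05, adjusted p = 8.84e-14). In LPS against Control the changes were -0.19 ± 0.05, adjusted p = 0.00597 for Mcm2 and -0.14 ± 0.05, adjusted p = 0.0252 for Mcm3, and the call of Mcm3 is lost with edgeR and without Control replicate 1 or 3 or LPS replicate 1 or 2 (adjusted p 0.054 to 0.107 in those, 3.42e-06 to 0.107 over all alternatives).

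Mcm4 (ENSMUSG00000022673, chromosome 16, 15440211 to 15455264) stood at 1286, 1413 and 1528 in the LPS+NaBu libraries, 8494, 8021 and 9097 in the LPS libraries and 8894, 9310 and 9012 in the Control libraries. Mcm6 (ENSMUSG00000026355, chromosome 1, 128259311 to 128287516) stood at 4171, 4297 and 4022 in the LPS+NaBu libraries, 17010, 17644 and 19046 in the LPS libraries and 18264, 17967 and 18053 in the Control libraries. These 2 subunits overlapped between the LPS and Control libraries and were not called there (log2 changes -0.09 ± 0.06, adjusted p = 0.257 for Mcm4, and -0.02 ± 0.05, adjusted p = 0.785 for Mcm6), although scaling to the same sum or quantile normalisation makes both called lower. LPS+NaBu cells had 6.06-fold lower Mcm4 (-2.60 ± 0.06, adjusted p = 7.77e-13) and 4.3-fold lower Mcm6 (-2.10 ± 0.05, adjusted p = 3.88e-13) than LPS cells.

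Mcm5 (ENSMUSG00000005410, chromosome 8, 75836140 to 75856231) stood at 4702, 4399 and 4142 in the LPS+NaBu libraries, 12435, 12911 and 12997 in the LPS libraries and 17772, 16476 and 17102 in the Control libraries. Mcm7 (ENSMUSG00000029730, chromosome 5, 138162844 to 138170684), which hosts the microRNA genes Mir25 and Mir93, stood at 2832, 3078 and 2822 in the LPS+NaBu libraries, 7554, 7892 and 7533 in the LPS libraries and 11736, 11229 and 11359 in the Control libraries. In both subunits the 3 groups were apart from each other, in the order LPS+NaBu, LPS, Control from low to high. They fell least of the MCM subunits in LPS+NaBu against LPS (-1.54 ± 0.05, adjusted p = 1.13e-11 for Mcm5, and -1.40 ± 0.05, adjusted p = 1.06e-11 for Mcm7) and most in LPS against Control (-0.42 ± 0.05, adjusted p = 1.11e-05 for Mcm5, and -0.58 ± 0.05, adjusted p = 1.94e-07 for Mcm7). Against Control, all 6 subunits in LPS+NaBu cells lay between -1.96 ± 0.05 (Mcm5) and -2.74 ± 0.05 (Mcm3), a narrower span than against LPS.

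Per kb of exon, Mcm6 had the highest level of the 6 in every group, at 766 ± 25.4 normalised counts per kb in LPS+NaBu cells, 3295 ± 192 in LPS cells and 3331 ± 28.2 in Control cells (SD, n = 3). The lowest level per kb was that of Mcm4 in LPS+NaBu cells (264 ± 22.5), and that of Mcm2 in LPS cells (1126 ± 64.2) and in Control cells (1280 ± 52.4). In LPS+NaBu cells Mcm4 and Mcm2 (268 ± 2.17) did not differ beyond their spread. With the length of the annotation's canonical transcript in place of all exons, an alternative chosen after seeing the data, Mcm6 stayed the highest in every group and Mcm4 was the lowest in every group.

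**Figure D3:**
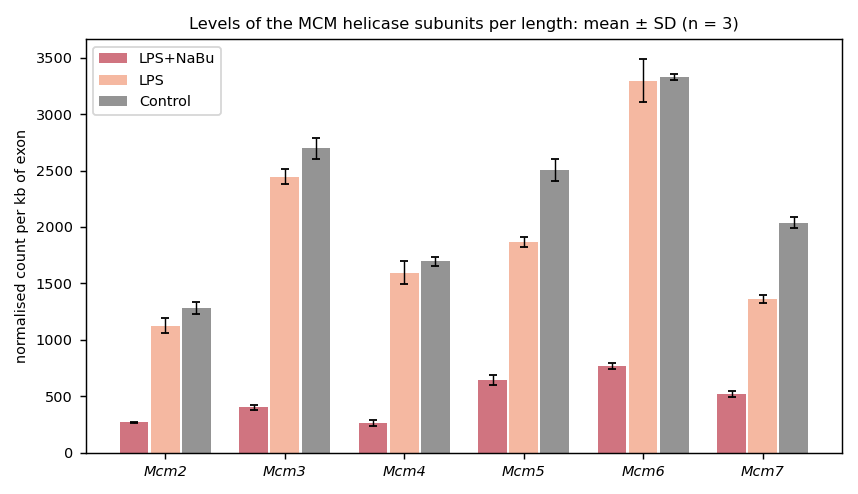
Level of each MCM subunit per kb of exon (vertical axis, normalised counts per kb; bars, mean; error bars, SD of 3 libraries), with LPS+NaBu, LPS and Control side by side. Every subunit was lowest in LPS+NaBu, and Mcm6 was the highest subunit in each group.

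Among the factors that activate the ring, Mcm10, which the helicase needs to start moving, changed most of all 55 genes in LPS+NaBu against LPS (ENSMUSG00000026669, chromosome 2, 4994516 to 5017629). It stood at 362, 332 and 366 in the LPS+NaBu libraries, 4869, 4939 and 5300 in the LPS libraries and 3201, 3043 and 3174 in the Control libraries. The LPS libraries were the highest and the LPS+NaBu libraries were far below every Control library. Mcm10 was 14.2-fold lower in LPS+NaBu against LPS (-3.83 ± 0.06, adjusted p = 1.85e-14), 8.87-fold lower in LPS+NaBu against Control (-3.15 ± 0.06, adjusted p = 6.96e-14) and 1.6-fold higher in LPS against Control (0.68 ± 0.06, adjusted p = 3.55e-07).

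The GINS complex, which has 4 subunits and travels with the helicase, did not move as a whole. Gins4 (ENSMUSG00000031546, chromosome 8, 23715215 to 23727777) stood at 3028, 2921 and 2717 in the LPS+NaBu libraries, 1599, 1704 and 1689 in the LPS libraries and 2640, 2340 and 2599 in the Control libraries. The LPS libraries were the lowest and the LPS+NaBu libraries lay above every Control library. Gins4 was 1.73-fold higher in LPS+NaBu against LPS (0.79 ± 0.06, adjusted p = 5.18e-08), and lower in LPS against Control (-0.60 ± 0.06, adjusted p = 2.16e-06). Against Control cells it was higher by 0.19 ± 0.06, adjusted p = 0.0111, a call that is lost without LPS+NaBu replicate 1 (adjusted p = 0.0535), without Control replicate 2 (adjusted p = 0.0616) and with edgeR (adjusted p = 0.069), against 1.46e-03 to 0.069 over all alternatives.

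Gins3 stood at 1230, 1296 and 1288 in the LPS+NaBu libraries, 1167, 1093 and 1222 in the LPS libraries and 2152, 2082 and 2136 in the Control libraries. The Control libraries were well above the others, and the LPS+NaBu libraries lay just above the LPS libraries without overlap. It was lower in LPS cells than in Control cells (-0.87 ± 0.06, adjusted p = 2.9e-08), the largest fall of the activation factors. In LPS+NaBu against LPS it was called higher by a narrow margin (0.13 ± 0.06, adjusted p = 0.0489), and the call is lost in 14 of the 20 alternatives, among them leaving out any Control replicate, LPS replicate 1 or 2, or LPS+NaBu replicate 2 or 3 (adjusted p 0.0629 to 0.172 in those, 3.05e-05 to 0.658 over all alternatives). Gins1 and Gins2 went the other way, with -1.72 ± 0.08, adjusted p = 2.8e-10 and -1.09 ± 0.08, adjusted p = 2.24e-08 in LPS+NaBu against LPS. The fall of Gins2 in LPS against Control (-0.23 ± 0.08, adjusted p = 0.0233) is not called without Control replicate 1, LPS replicate 1 or LPS replicate 3 (adjusted p 0.0532 to 0.0972 in those, 1.06e-04 to 0.0972 over all alternatives). The values of Gins2 may hold reads of Gse1, since 67.3% of its exon bases lie opposite Gse1 exons and the sources used here do not say whether counting used strand.

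Cdc45, the third partner of the helicase, averaged 790 ± 25.6 in LPS+NaBu cells, 2310 ± 131 in LPS cells and 2379 ± 58.6 in Control cells. It was 2.92-fold lower in LPS+NaBu against LPS (-1.55 ± 0.06, adjusted p = 3.41e-11) and not called in LPS against Control (-0.04 ± 0.06). Ticrr and Topbp1, which bring Cdc45 and GINS to the ring, were 2.94-fold and 3.02-fold lower in LPS+NaBu against LPS (-1.55 ± 0.06 and -1.60 ± 0.05). Both were also lower in LPS against Control (-0.36 ± 0.06 and -0.60 ± 0.05).

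All 5 kinase and cyclin genes that fire origins were called lower in both comparisons. Dbf4, the activating subunit of the Cdc7 kinase that phosphorylates the MCM ring, stood at 571, 516 and 637 in the LPS+NaBu libraries, 2733, 2586 and 2873 in the LPS libraries and 3230, 3347 and 3123 in the Control libraries. The groups did not overlap, and the gap below the LPS libraries was far wider than the gap between LPS and Control. Dbf4 was 4.76-fold lower in LPS+NaBu against LPS (-2.25 ± 0.07, adjusted p = 1.03e-11) and lower in LPS against Control (-0.24 ± 0.07, adjusted p = 0.0126), a call that is lost without Control replicate 2 (adjusted p = 0.0511, against 1.75e-04 to 0.0511 over all alternatives). Its partner Cdc7 fell by less, at -1.01 ± 0.08 in LPS+NaBu against LPS.

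The 2 genes for cyclin E, the partner of Cdk2 at the start of S phase, differed in size of change. Ccne1 stood at 1759, 1826 and 1602 in the LPS+NaBu libraries, 2122, 2212 and 2189 in the LPS libraries and 3711, 3564 and 3603 in the Control libraries. The groups did not overlap, with the LPS+NaBu libraries lowest and the Control libraries highest. Its larger step was between LPS and Control (-0.74 ± 0.05, adjusted p = 9.83e-08), with a smaller one in LPS+NaBu against LPS (-0.33 ± 0.05, adjusted p = 9.08e-05) that is lost with libraries scaled to the same sum. Ccne2 stood at 248, 271 and 275 in the LPS+NaBu libraries, 1000, 847 and 1037 in the LPS libraries and 1252, 1345 and 1184 in the Control libraries. Its groups had the same order, again without overlap, and the LPS+NaBu libraries stood far below the others. It was 3.61-fold lower in LPS+NaBu against LPS (-1.85 ± 0.09, adjusted p = 5.16e-10) and 1.31-fold lower in LPS against Control (-0.39 ± 0.09, adjusted p = 0.00234). Cdk2 itself changed by -0.45 ± 0.06 and -0.38 ± 0.06 in the same comparisons.

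**Figure D4:**
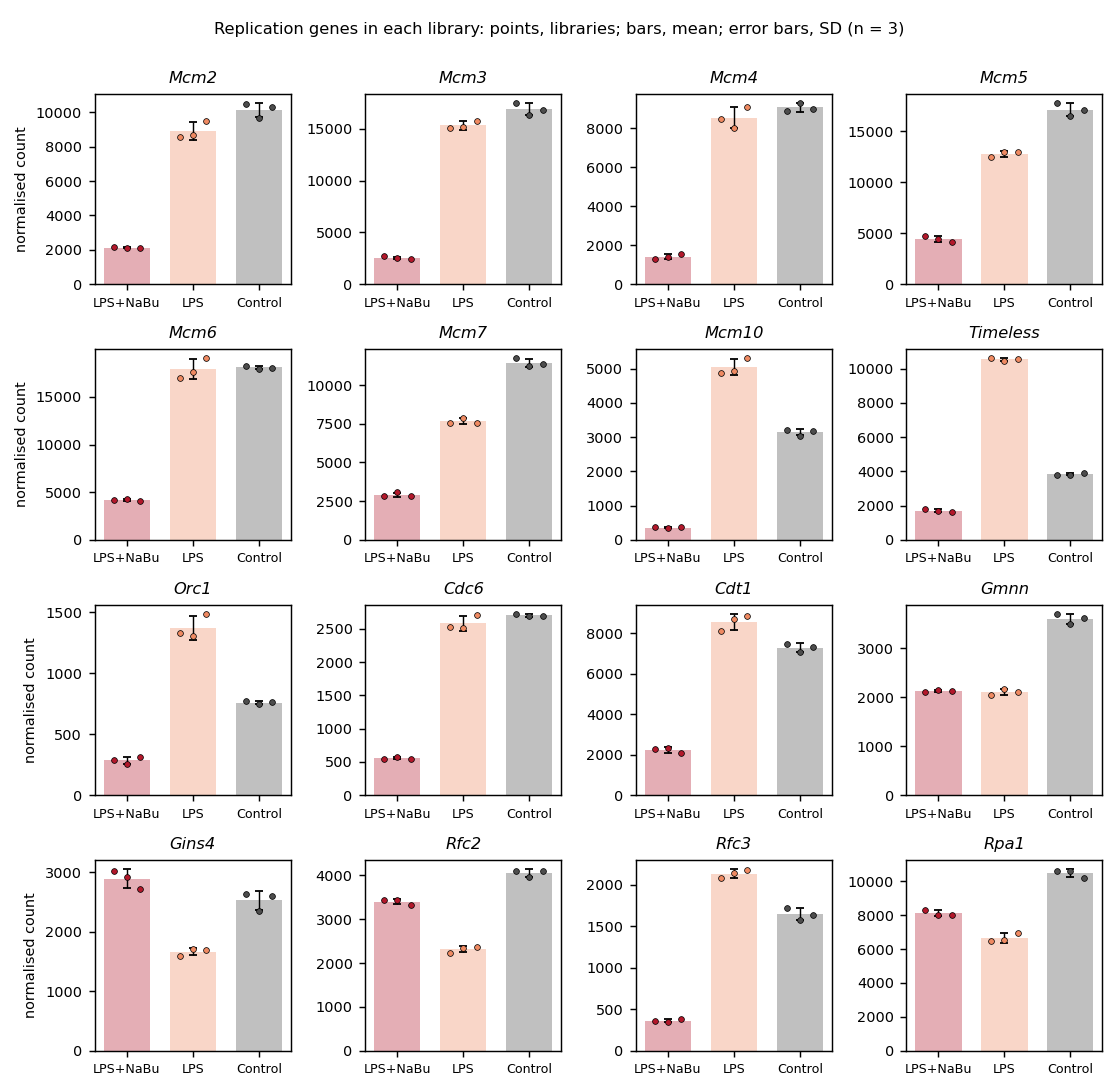
Normalised counts (vertical axes, each from 0) of 16 of the replication genes in the LPS+NaBu, LPS and Control libraries; points are libraries, bars means and error bars SD (n = 3). Mcm10, Timeless, Orc1, Rfc3 and Cdt1 were highest in LPS and lowest in LPS+NaBu, Gins4, Rfc2 and Rpa1 were lowest in LPS, and the LPS+NaBu and LPS libraries overlapped for Gmnn.

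The primase and polymerase genes had their largest falls in LPS+NaBu cells, against LPS as against Control, in catalytic subunits of the polymerases. Pola1, the catalytic subunit of polymerase alpha, which extends the primers, stood at 583, 696 and 628 in the LPS+NaBu libraries, 2174, 1671 and 2141 in the LPS libraries and 2862, 3099 and 3140 in the Control libraries. The LPS+NaBu libraries were far below the rest, and the LPS libraries, whose spread was wide, were below every Control library. Pola1 was 3.12-fold lower in LPS+NaBu against LPS (-1.64 ± 0.10, adjusted p = 3.52e-09) and lower in LPS against Control (-0.61 ± 0.10, adjusted p = 0.000127). Its accessory subunit Pola2 changed by -0.12 ± 0.05, adjusted p = 0.0494 in LPS+NaBu against LPS, a call that is lost in 13 of the 20 alternatives, among them leaving out any Control replicate, LPS replicate 2 or 3, or LPS+NaBu replicate 2 or 3 (adjusted p 0.059 to 0.213 in those, 1.61e-03 to 0.579 over all alternatives), and that turns to higher with libraries scaled to the same sum.

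Pole, the catalytic subunit of polymerase epsilon on the leading strand, stood at 876, 903 and 798 in the LPS+NaBu libraries, 2265, 2062 and 2408 in the LPS libraries and 3721, 3882 and 4105 in the Control libraries. The 3 groups were apart. It had the largest fall of this role in LPS against Control (-0.80 ± 0.07, adjusted p = 4.62e-07) and was 2.61-fold lower in LPS+NaBu against LPS (-1.38 ± 0.07, adjusted p = 6.47e-10). Pole2, its second subunit, fell by less in LPS+NaBu against LPS (-0.48 ± 0.12, not called with libraries scaled to the same sum). Pold1, the catalytic subunit of polymerase delta on the lagging strand, was 1.92-fold lower in LPS+NaBu against LPS (-0.94 ± 0.06, adjusted p = 1.22e-08), while its partners Pold2 and Pold3 changed by -0.28 ± 0.07 and -0.81 ± 0.05. With libraries scaled to the same sum the change of Pold2 is -0.0084 and not called (adjusted p = 0.916).

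The primase genes Prim1 and Prim2, which make the RNA primers, changed more in LPS against Control than in LPS+NaBu against LPS, a difference that was not tested. Prim1 was lower in LPS against Control (-0.65 ± 0.06) and by less in LPS+NaBu against LPS (-0.29 ± 0.06, lost with scaling to the same sum). Prim2 stood at 1472, 1403 and 1342 in the LPS+NaBu libraries, 1294, 1244 and 1415 in the LPS libraries and 2158, 2140 and 2129 in the Control libraries. The LPS+NaBu and LPS libraries overlapped and both lay under every Control library (0.09 ± 0.06, adjusted p = 0.171 in LPS+NaBu against LPS, and -0.70 ± 0.06, adjusted p = 4.42e-07 in LPS against Control). Prim2 becomes called higher in LPS+NaBu against LPS with libraries scaled to the same sum and without LPS replicate 3, where the adjusted p is 0.0462 (range over all alternatives 7.16e-05 to 0.931).

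Pcna, the sliding clamp that holds polymerases on DNA, was by normalised count per kb the highest gene of its role in every group. It averaged 19189 ± 346 normalised counts in LPS+NaBu cells, 30799 ± 881 in LPS cells and 37491 ± 1458 in Control cells (SD, n = 3), and was lower in both comparisons (-0.68 ± 0.04, adjusted p = 7.96e-09 in LPS+NaBu against LPS, and -0.28 ± 0.04, adjusted p = 9.94e-05 in LPS against Control). The annotation names 2 pseudogenes of Pcna, whose reads could be shared with it if reads matching several places were counted. The clamp loader, which opens the clamp, split by subunit. Rfc3, a small subunit, stood at 364, 347 and 382 in the LPS+NaBu libraries, 2078, 2141 and 2181 in the LPS libraries and 1723, 1580 and 1636 in the Control libraries. The order was LPS, Control, LPS+NaBu from high to low with no overlap. Rfc3 was 5.85-fold lower in LPS+NaBu against LPS (-2.55 ± 0.06, adjusted p = 8.04e-13) and higher in LPS against Control (0.37 ± 0.06, adjusted p = 0.000202), a call that is lost with libraries scaled to the same sum.

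Rfc2, another small subunit of the loader, stood at 3433, 3450 and 3329 in the LPS+NaBu libraries, 2233, 2350 and 2364 in the LPS libraries and 4105, 3958 and 4102 in the Control libraries. Here the LPS libraries were the lowest, and the LPS+NaBu libraries lay between them and the Control libraries. Rfc2 was 1.47-fold higher in LPS+NaBu against LPS (0.56 ± 0.04, adjusted p = 7.77e-08) and lower in LPS against Control (-0.81 ± 0.04, adjusted p = 4.87e-09), the largest fall of its role there. Rfc1, the large subunit, stood at 4575, 4680 and 4884 in the LPS+NaBu libraries, 4283, 4069 and 4101 in the LPS libraries and 5783, 5617 and 5603 in the Control libraries. As for Rfc2, the LPS libraries were lowest and the LPS+NaBu libraries intermediate, and no groups overlapped. Its rise in LPS+NaBu against LPS was small (0.18 ± 0.04, adjusted p = 0.00167) and was lost with edgeR (adjusted p = 0.132, against 1.09e-06 to 0.132 over all alternatives). Rfc4 and Rfc5 were lower in LPS+NaBu against LPS (-0.82 ± 0.06 and -0.59 ± 0.07). Exons of other genes lie opposite 41.4% of the exon bases of Rfc5, 29.05% of those of Rfc4 and 24.3% of those of Rfc2.

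RPA coats single-stranded DNA as a complex of 3 subunits, and its genes did not move as one. Rpa1, the large subunit, stood at 8311, 8028 and 8012 in the LPS+NaBu libraries, 6480, 6506 and 6968 in the LPS libraries and 10609, 10592 and 10213 in the Control libraries. The LPS libraries were the lowest and the Control libraries the highest, with the LPS+NaBu libraries between. Rpa1 was 1.22-fold higher in LPS+NaBu against LPS (0.29 ± 0.04, adjusted p = 3.61e-05) and 1.57-fold lower in LPS against Control (-0.66 ± 0.04, adjusted p = 2.72e-08). Rpa3, the smallest subunit, stood at 267, 267 and 287 in the LPS+NaBu libraries, 734, 831 and 789 in the LPS libraries and 1001, 909 and 962 in the Control libraries. The LPS+NaBu libraries were far below the LPS libraries, which lay below the Control libraries, with no overlap. It was 2.86-fold lower in LPS+NaBu against LPS (-1.52 ± 0.08, adjusted p = 1.04e-09), and Rpa2 was 1.98-fold lower (-0.99 ± 0.05, adjusted p = 7.28e-10). Per kb of exon, Rpa2 was above Rpa1 in LPS and Control cells, and Rpa1 was above Rpa2 in LPS+NaBu cells (1026 ± 21.2 and 528 ± 10.9 normalised counts per kb).

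The 3 genes that finish Okazaki fragments, the short pieces of the lagging strand, were all called lower in LPS+NaBu against LPS. Lig1, the ligase that seals them, stood at 1637, 1686 and 1710 in the LPS+NaBu libraries, 4907, 5132 and 5392 in the LPS libraries and 7254, 7288 and 7556 in the Control libraries. The 3 groups were apart. Lig1 was 3.06-fold lower in LPS+NaBu against LPS (-1.61 ± 0.05, adjusted p = 3.13e-12) and 1.43-fold lower in LPS against Control (-0.52 ± 0.05, adjusted p = 6.57e-07). Dna2, a nuclease that trims long flaps, was 2.37-fold lower in LPS+NaBu against LPS (-1.24 ± 0.06, adjusted p = 3.74e-10) and not called in LPS against Control (-0.05 ± 0.06). Fen1, the flap nuclease, had only 118 to 419 normalised counts across the libraries and 66.0% of its exon bases lie opposite other genes, among them Tmem258, and it changed by -1.18 ± 0.15, adjusted p = 8.16e-06 in LPS+NaBu against LPS. Its change in LPS against Control (-0.31 ± 0.15, adjusted p = 0.101) is called in 3 alternatives: without LPS+NaBu replicate 1 (adjusted p = 0.032), with only the LPS and Control libraries fitted (0.0228) and with libraries scaled to the same sum (0.00658), against 6.58e-03 to 0.229 over all alternatives.

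Timeless, which with Tipin stabilises the fork, had the largest rise of the 55 genes in LPS against Control (ENSMUSG00000039994, chromosome 10, 128067926 to 128088810). It stood at 1801, 1702 and 1604 in the LPS+NaBu libraries, 10595, 10463 and 10543 in the LPS libraries and 3791, 3787 and 3882 in the Control libraries. The LPS libraries were far above all others and the LPS+NaBu libraries lay under every Control library. Timeless was 2.76-fold higher in LPS against Control (1.46 ± 0.05, adjusted p = 2.27e-11), 6.19-fold lower in LPS+NaBu against LPS (-2.63 ± 0.05, adjusted p = 7.02e-14) and 2.25-fold lower in LPS+NaBu against Control (-1.17 ± 0.05, adjusted p = 9.22e-11). Its partner Tipin was also lower in LPS+NaBu cells, by 2.6-fold against LPS (-1.38 ± 0.04, adjusted p = 9.25e-12) and 2.83-fold against Control (-1.50 ± 0.04, adjusted p = 4.91e-12), but did not share its rise in LPS cells. Tipin averaged 1445 ± 24.1 in LPS+NaBu cells, 3761 ± 93.8 in LPS cells and 4093 ± 109 in Control cells, and was slightly lower in LPS against Control (-0.12 ± 0.04, adjusted p = 0.0339), a call lost in 7 alternatives, 4 of which leave out a library (Control replicate 1 or 3, LPS replicate 1 or 2; adjusted p 0.064 to 0.126, against 1.07e-05 to 0.142 over all alternatives).

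Clspn, the adaptor claspin that carries the checkpoint signal at the fork, was 4.17-fold lower in LPS+NaBu against LPS (-2.06 ± 0.05, adjusted p = 9.42e-13), and Wdhd1, which couples polymerase alpha to the helicase, was 2.26-fold lower (-1.18 ± 0.06, adjusted p = 4.65e-10). Both were also lower in LPS against Control (-0.67 ± 0.05 and -0.54 ± 0.06). The fork protection and coupling genes together took, of all normalised counts, 0.0115% to 0.0117% in the LPS+NaBu libraries, 0.0372% to 0.0388% in the LPS libraries and 0.037% to 0.0376% in the Control libraries. The LPS and Control libraries overlapped in this share, whereas their summed normalised counts did not. These sums were 19863 to 20372 in the LPS libraries and 16846 to 16922 in the Control libraries. The LPS+NaBu libraries were far below both groups on either measure. In LPS against Control only Timeless of this role was called higher (means 10533 and 3820), and the other 3 genes were called lower.

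Behind the fork, the chromatin assembly factor CAF-1 places histones on new DNA. Its large subunit Chaf1a stood at 2604, 2729 and 2552 in the LPS+NaBu libraries, 5762, 5870 and 6341 in the LPS libraries and 7072, 6707 and 7698 in the Control libraries. Its partner Chaf1b stood at 1626, 1556 and 1502 in the LPS+NaBu libraries, 1809, 2175 and 2084 in the LPS libraries and 2960, 2860 and 2811 in the Control libraries. For both genes the groups did not overlap, and the LPS+NaBu libraries were the lowest. Chaf1a had the wider step below the LPS libraries, with -1.19 ± 0.06, adjusted p = 4.6e-10 in LPS+NaBu against LPS, against -0.37 ± 0.07, adjusted p = 0.000211 for Chaf1b, whose call is lost with libraries scaled to the same sum. In LPS against Control the order was the other way, -0.26 ± 0.06, adjusted p = 0.00197 for Chaf1a and -0.51 ± 0.07, adjusted p = 2.31e-05 for Chaf1b. Exons of Ubxn6 lie opposite 51.0% of the exon bases of Chaf1a.

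Other genes of DNA replication, 57 in all and all tested, were also called lower more often than higher. Of these, 44 were called lower and 9 higher in LPS+NaBu against LPS, where 37.8% of all genes tested were lower and 40.2% higher, and their median log2 change was -0.99, against 0.02 over all genes. In LPS against Control, 31 were lower and 9 higher (30.8% and 25.2% of all genes), with a median of -0.23, against -0.05 over all genes. In LPS+NaBu against Control, 46 were lower and 7 higher (35.1% and 40.9% of all genes), with a median of -1.13, against 0.09 over all genes.

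Fbxo5, which encodes Emi1, an inhibitor of the anaphase-promoting complex that protects geminin and cyclin A, had the largest fall of these in LPS+NaBu against LPS. It stood at 70.8, 75.8 and 69.8 in the LPS+NaBu libraries, 952, 874 and 910 in the LPS libraries and 1631, 1830 and 1658 in the Control libraries (12.5-fold lower in LPS+NaBu against LPS, log2 change -3.64 ± 0.08, adjusted p = 4.63e-13). The LPS+NaBu libraries were far under all others, and the Control libraries were the highest. Hells, a chromatin remodeller of dividing cells, and Ccna2, the cyclin A of S phase, followed with -2.96 ± 0.09 and -2.91 ± 0.06. The largest rises were those of Donson, which helps GINS onto the helicase (2.1-fold higher, 1.07 ± 0.07, adjusted p = 7.27e-09), the fork ATPase Wrnip1 (0.82 ± 0.05) and Rnaseh2c, a subunit of the ribonuclease that removes RNA from DNA (0.78 ± 0.09).

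In LPS against Control, the 3 largest falls among the called genes of this wider list were those of Esco2, a cohesin acetyltransferase (-0.995 ± 0.102), Recql4, a helicase (-0.95 ± 0.09), and Ccna2 (-0.94 ± 0.06). Mcm9, an MCM relative that acts in repair, had the largest rise (0.71 ± 0.09, adjusted p = 1.25e-05), then the histone chaperone Asf1a (0.66 ± 0.07) and the polymerase epsilon subunit Pole4 (0.49 ± 0.06). Mcm9 and Asf1a overlap on opposite strands, over 37.9% of the exon bases of Mcm9 and 62.6% of those of Asf1a, so reads of one may be held in the value of the other. Exons of other genes also lie opposite 59.6% of the exon bases of Recql4, 26.3% of those of Rnaseh2c and 25.6% of those of Donson. In LPS+NaBu against Control, Fbxo5 (-4.54 ± 0.08), Ccna2 (-3.85 ± 0.06) and the clamp-binding factor Pclaf (-3.44 ± 0.05) fell most. Wrnip1 (0.79 ± 0.05), Donson (0.71 ± 0.07) and the checkpoint clamp loader Rad17 (0.33 ± 0.06) rose most.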

How the data were processed

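Per the labels, total RNA of 9 RAW264.7 libraries was sequenced with a directional kit. The study's methods give Trimmomatic, HISAT2 and featureCounts, while STAR 2.7.7a, DESeq2 and mm39 stand in the submitters' processing notes, so which aligner was used is unsettled, and no source used here tells whether counting was stranded. The deposited signal, called FPKM by the authors, is gene counts divided by a size factor per library: every value was a whole multiple of what 1 read is worth (within 0.001, 100% of values in each library), though in 3 libraries that step is within 1% of 1 and the test says little. The planned minimum was therefore applied to normalised counts. Genes with at least 10 normalised counts in at least 3 libraries (14808 of 43629) were transformed to log2(normalised count + 1) and tested by limma 3.58.1 (R 4.3.3), with a trend, over all 9 libraries, two-sided, with Benjamini-Hochberg adjustment over all genes tested, and called at an adjusted p under 0.05. Fold changes on this scale understate those of low genes, and ± beside a log2 change is its standard error. edgeR 4.0.16 and DESeq2 1.42.0 on recovered reads, other scalings, filters and pseudocounts, a replicate block and leaving out each library were the 20 alternatives. Exons and gene coordinates are from GENCODE M39 (GRCm39), and promoters from RefSeq (GRCm38.p6). The members, the lists and the tests were chosen with earlier results of these data known. Values per library were given for Mcm2 to Mcm7, for the gene of each role with the largest called change in LPS+NaBu against LPS and in LPS against Control, and for called genes opposite to most of their role. Of the other replication genes, the 3 largest called rises and falls per comparison were named. The library values of Orc4, Prim2 and Ccne2 fall outside this rule and were chosen after they were seen. Whether the replicates are separate cultures is not stated, so the spread behind each p-value is that of these libraries and may be technical in part. Scripts were tested on simulated data.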

Additional observations from a re-analysis of the deposited data

How the results depend on the processing

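Of 3300 values (55 genes, 3 comparisons, 20 alternatives), 3223 kept their direction and their side of the threshold, 56 lost the call, 15 gained one and 6 reversed. Of the 55 genes, 43 in LPS+NaBu against LPS, 39 in LPS against Control and 54 in LPS+NaBu against Control kept both in every alternative. All 6 reversals came with libraries scaled to the same sum, which by its construction lowers the LPS libraries against the others: in LPS+NaBu against LPS, Orc2 at 0.20, Orc4 at 0.28 and Pola2 at 0.16, and in LPS against Control, Orc3 at -0.21, Orc6 at -0.18 and Pold3 at -0.13. The number of the 55 genes called higher became 10 with this scaling and 3 with edgeR in LPS+NaBu against LPS. It became 3 with this scaling in LPS against Control, and 1 with edgeR in LPS+NaBu against Control. Over all 14808 genes, edgeR called 5455 higher and 6166 lower in LPS+NaBu against LPS, and 5749 and 5585 in LPS+NaBu against Control. The scaling of edgeR shifted the median of all genes by -0.10 in LPS+NaBu against LPS, and beyond these shifts the cause was not tested. With a library left out in turn, 45 to 46 genes were lower and 4 to 6 higher in LPS+NaBu against LPS, 37 to 41 lower and 6 higher in LPS against Control, and 53 lower and 1 to 2 higher in LPS+NaBu against Control. Over all genes tested, the same fits gave 5408 to 5585 lower and 5730 to 5934 higher in LPS+NaBu against LPS. They gave 4108 to 4558 lower and 3390 to 3775 higher in LPS against Control, and 4928 to 5299 lower and 5778 to 6168 higher in LPS+NaBu against Control. Libraries with the same replicate number did not deviate together (9 correlations between -0.0444 and 0.0202), so the numbers were not taken to pair them. A replicate block gave 45 lower and 4 higher in LPS+NaBu against LPS, 39 and 6 in LPS against Control, and 53 and 2 in LPS+NaBu against Control. Over all genes tested it gave, in the same order, 5560 lower and 5904 higher, 4400 and 3577, and 5129 and 5995. This block lost the calls of Gins3 (0.0716) and Pola2 (0.0784) in the first and Tipin (0.0651) in the second comparison, all adjusted p. Fen1 had the fewest recovered reads of the 55 genes (106 to 527 in a library), and the part of depth in these calls was not tested.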
